A study of Mus musculus with 12 samples.

Results

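The change in gene expression between 6 h and 12 h of Sox7 induction was described here, in 4 of the 12 libraries of the series. They were the 2 libraries taken at 12 h and the 2 taken at 6 h of doxycycline (Dox) at 1 µg/ml, and all genes entered the comparison. The cells of every group were mouse haemogenic endothelium made from embryonic stem cells of iSox7, a derivative of the Ainv18 line in which Dox switches on a Sox7 transgene. To make them, embryoid bodies of day 3.5 were sorted for FLK1+ cells, and these spent 48 h in liquid blast culture. The labels give VEGF at 5 ng/ml and IL-6 at 10 ng/ml for every sample. The same hours without Dox, with 2 libraries at 12 h and 2 at 6 h, were set beside the course under Dox. All groups carry the transgene and come from 1 engineered line, and the labels name no parental line without it and no Dox-treated control line, so the effect of Dox itself cannot be told apart from that of the transgene. Whether the replicates came from different cultures is not in the labels, and all p-values here reflect only how far libraries of a group lie apart, which may be technical spread.

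Haemogenic endothelium is the endothelium from which blood cells bud, a step called the endothelial-to-haematopoietic transition. RUNX1 drives this step, in part by switching on the repressors GFI1 and GFI1B, which shut down endothelial genes. SOX7 belongs with SOX17 and SOX18 to the SOXF factors of early endothelium, which also act in arterial identity together with Notch signalling. The series asks how induced SOX7 affects RUNX1 target genes during this transition, and the course from 6 h to 12 h of Dox shows what moved once the transgene was already on.

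Levels are given in CPM, counts scaled to library size. Groups were compared with the quasi-likelihood test of edgeR and p-values were adjusted after Benjamini-Hochberg over all 15347 genes that passed the filter on low counts, of 41128 in the table. An adjusted p under 0.05 made a call, and "rose" and "fell" are used of called genes. Fold changes are log2 values of 12 h over 6 h with their standard error (SE). All adjusted p-values come from this test unless another tool is named. Coordinates are on GRCm38. In bulk RNA, fewer cells of a type and less RNA per cell cannot be told apart.

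Total counts were 35250074 and 15429846 at 12 h of Dox, and 14544054 and 27516106 at 6 h. Each group thus held 1 deep and 1 shallow library, and Dox 12 h replicate 1 and Dox 6 h replicate 2 were the deep ones. Transcripts of the mitochondrial genome took 1.55% and 1.47% of counts at 12 h of Dox, against 1.90% and 1.89% at 6 h. Defining endothelial markers were high at both hours. Cdh5, the cadherin of endothelial junctions, stood at 723 and 775 CPM at 12 h and 706 and 764 CPM at 6 h of Dox, and Kdr, which encodes the VEGF receptor FLK1, at 549 and 562 CPM at 12 h and 622 and 676 CPM at 6 h. Both markers were thus abundant in all 4 libraries.

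Sox7 (ENSMUSG00000063060, chromosome 14, 63943674 to 63950732, plus strand), the induced gene, had 379 and 376 CPM at 12 h of Dox, against 326 and 314 CPM at 6 h. The untreated libraries had 55.6 and 68.8 CPM at 12 h, against 77.9 and 81.7 CPM at 6 h, so every Dox library stood above every untreated one. Between 6 h and 12 h of Dox it rose by 0.24 ± 0.06 (adjusted p = 0.00241), while it fell in untreated cells (-0.33 ± 0.07, adjusted p = 0.000794). The difference between these changes was 0.57 ± 0.09 (adjusted p = 0.000419). Without Dox 6 h replicate 2 the rise under Dox was no longer called (0.21, adjusted p = 0.0638). The table does not separate transgene from endogenous transcripts.

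Over all tested genes, 2952 changed between 6 h and 12 h of Dox (19.2%), of which 1389 rose (9.05%) and 1563 fell (10.2%). Large changes were mostly rises, with 134 genes higher by at least 2-fold (0.873%) and 21 lower (0.137%). Both 12 h libraries lay on 1 side of both 6 h libraries for 8802 genes (57.4%). Limma-trend on log2(RPKM + 0.5) called 1739 genes, 58% of them higher, against 47.1% higher among the edgeR calls. Without Dox 6 h replicate 2, 1094 genes were called, and 1490 without Dox 12 h replicate 1.

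The 15 largest rises and 15 largest falls were taken among called, named genes whose groups did not overlap and whose log2 CPM averaged 1 or more. Heyl (ENSMUSG00000032744, chromosome 4, 123233556 to 123249875, plus strand), which encodes a transcriptional repressor downstream of Notch, had 2.88 and 2.95 CPM at 12 h of Dox, against 0.762 and 0.735 CPM at 6 h. Its log2 fold change was 1.96 ± 0.33 (adjusted p = 3.59e-05). Untreated cells had 3.28 and 1.67 CPM at 12 h, against 0.737 and 1.33 CPM at 6 h, and Heyl rose there too (1.25, adjusted p = 0.0144). Rac2 (ENSMUSG00000033220, chromosome 15, 78559169 to 78572783, minus strand), a GTPase gene of blood cells, had 6.06 and 6.16 CPM at 12 h of Dox, against 1.46 and 1.8 CPM at 6 h, so that it rose by 1.87 ± 0.23 (adjusted p = 1.01e-07). Lack of overlap was a condition of the choice, and the values of both genes lay close together within each Dox group. Aldh1l2, which encodes a mitochondrial enzyme of folate metabolism, had 6.12 and 4.68 CPM at 12 h of Dox, against 1.59 and 1.54 CPM at 6 h (1.82 ± 0.26, adjusted p = 3.09e-06). Adora1, the adenosine A1 receptor gene, had 9.86 and 8.73 CPM at 12 h of Dox, against 3.12 and 3.34 CPM at 6 h (1.53 ± 0.17, adjusted p = 1.32e-08).

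Hbb-y, the embryonic beta-like globin gene, was the most abundant of these 15 rises. It had 390.3 and 378 CPM at 12 h of Dox, against 138 and 147 CPM at 6 h (1.43 ± 0.12, adjusted p = 0.000167), and untreated cells had 152 and 126 CPM at 12 h, against 97.9 and 87.6 CPM at 6 h. Globin genes have near-identical copies whose reads the authors' counting could split, so single globin values are uncertain. The other large rises were those of Cpz (1.67), a carboxypeptidase gene, Plekha6 (1.63), the T-box factor gene Tbx4 (1.51), the T cell receptor co-stimulator gene Cd28 (1.45) and the chemerin receptor gene Cmklr1 (1.44). Ltbp4, which encodes a binding protein of latent TGF-beta, followed with 1.44, the collagen cross-linking enzyme gene Lox with 1.38, Trim46 with 1.36, Gfi1b with 1.35 and the ubiquitin ligase gene March10 with 1.30. Most of these genes were scarce: 13 of the 15 stayed under 10 CPM in both Dox 12 h libraries and both Dox 6 h libraries. Calls of Lox and March10 were lost without Dox 6 h replicate 2 or without Dox 12 h replicate 1, and that of Tbx4 without Dox 6 h replicate 2.

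**Figure D1:**
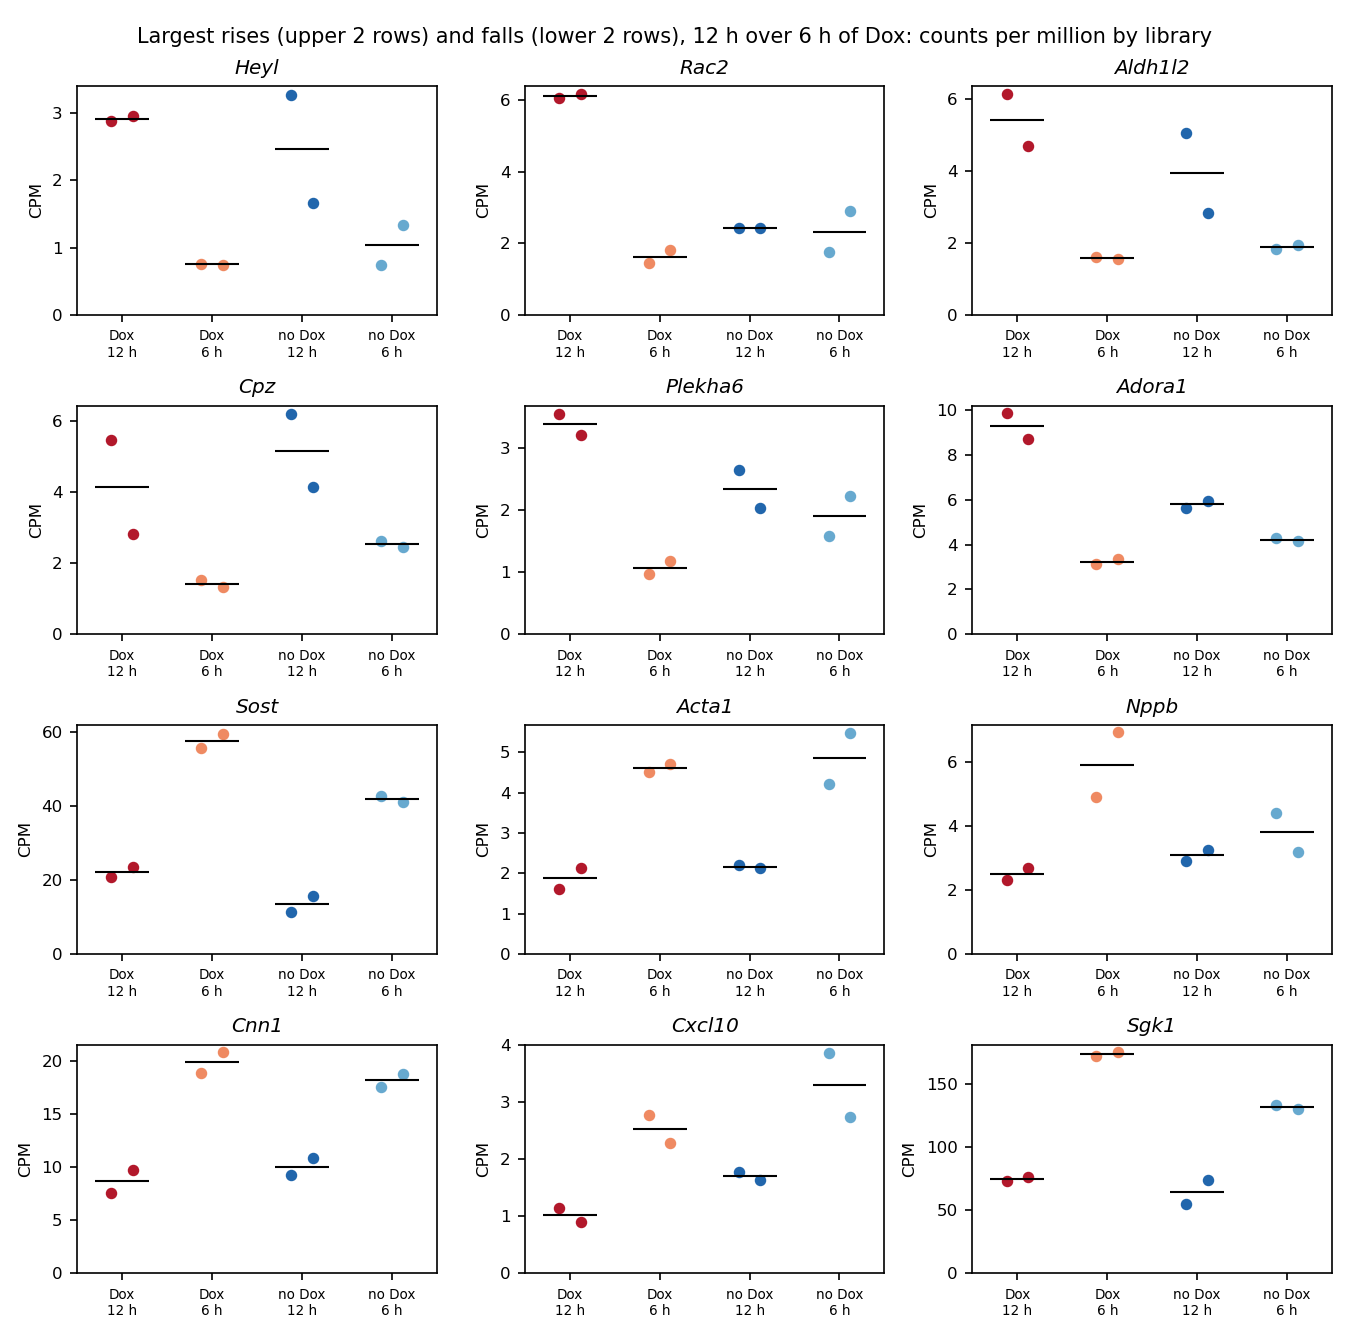
CPM (counts scaled to library size, linear axis from 0) by library for the 6 largest rises (upper 2 rows) and 6 largest falls (lower 2 rows) between 6 h and 12 h of Dox; points are single libraries and lines are group means. By the rule of choice, both Dox 12 h libraries lie on 1 side of both Dox 6 h libraries in each panel. For Rac2 the untreated groups overlap.

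Sost (ENSMUSG00000001494, chromosome 11, 101962458 to 101967015, minus strand), which encodes sclerostin, a secreted inhibitor of Wnt signalling, had 20.7 and 23.6 CPM at 12 h of Dox, against 55.8 and 59.5 CPM at 6 h. It fell by 1.40 ± 0.11 on the log2 scale (adjusted p = 9.98e-11), and untreated cells had 11.3 and 15.6 CPM at 12 h, against 42.6 and 41.1 CPM at 6 h. Sgk1, a kinase gene induced by serum and glucocorticoids, had 73.3 and 76.7 CPM at 12 h of Dox, against 173 and 176 CPM at 6 h (-1.22 ± 0.08, adjusted p = 9.32e-09). Both genes fell in untreated cells as well, with log2 fold changes of -1.59 and -1.01. Cnn1, which encodes calponin of smooth muscle, had 7.57 and 9.75 CPM at 12 h of Dox, against 18.9 and 20.9 CPM at 6 h (-1.25 ± 0.13, adjusted p = 5.39e-09). Actc1, the cardiac actin gene, had 29.1 and 35.7 CPM at 12 h of Dox, against 62 and 64.3 CPM at 6 h (-0.99 ± 0.08, adjusted p = 1.56e-11). Acta1, the skeletal actin gene, was far less abundant, with 1.62 and 2.12 CPM at 12 h of Dox, against 4.5 and 4.7 CPM at 6 h (-1.35). Actin genes resemble each other closely, so reads may be split between them.

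Nppb, which encodes the natriuretic peptide BNP, had 2.32 and 2.69 CPM at 12 h of Dox, against 4.92 and 6.94 CPM at 6 h (-1.30 ± 0.22, adjusted p = 3.24e-05). Oit3 had 45.6 and 49.3 CPM at 12 h of Dox, against 89.2 and 89.2 CPM at 6 h (-0.92 ± 0.08, adjusted p = 1.56e-11). The remaining falls were those of the chemokine gene Cxcl10 (-1.22), the muscle ring-finger gene Trim54 (-1.05), Tfec (-0.98), Prss12 (-0.93), Vgf (-0.89), Slfn9 (-0.89), the procollagen processing gene Pcolce2 (-0.88) and the homeobox gene Lhx6 (-0.87). Of the 30 largest changes in both directions, 23 kept their call in every alternative fit that tested them, which was 14 fits, or 13 for Hbb-y. Trim54, Pcolce2 and Lhx6 lost theirs when Dox 6 h replicate 2 or Dox 12 h replicate 1 was left out, and Slfn9 whichever of the 4 Dox libraries was left out.

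Changes over the same hours without Dox went largely the same way. The untreated course shared no library with the Dox course, and 1232 genes were called in it (8.03%), 709 higher (4.62%) and 523 lower (3.41%), with 85 higher (0.554%) and 11 lower (0.0717%) by at least 2-fold. Libraries of both hours did not overlap for 7514 genes (49%). Of the 2952 genes called under Dox, 2643 had the same sign in untreated cells (89.5%), against 68.3% of all tested genes. Both courses called 766 genes in the same direction, which is 25.9% of the Dox calls and 62.2% of the untreated calls, and 5 genes in opposite directions. The log2 fold changes of both courses had a Pearson r of 0.343 over all 15347 tested genes. It was 0.567 across the 12451 genes whose log2 CPM averaged 1 or more. Both are descriptions across genes, which are not independent replicates.

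Which changes differed between the courses was tested as the change with Dox minus the change without it. That difference was called for 63 genes (0.411%), 33 higher (0.215%) and 30 lower (0.195%) with Dox, and 1519 genes had an unadjusted p under 0.05. It reached at least 2-fold upward for 7 genes (0.0456%) and downward for 4 (0.0261%). The count depended on single libraries: it was 12 without Dox 6 h replicate 2 or without untreated 6 h replicate 2, 18 without Dox 12 h replicate 1 or without untreated 12 h replicate 2, and 213 without Dox 6 h replicate 1. It was 99 without Dox 12 h replicate 2, 121 without untreated 6 h replicate 1 and 125 without untreated 12 h replicate 1. Limma-trend on RPKM called 4 genes. For 34 of the 63 genes the 2 courses had opposite signs.

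**Figure D2:**
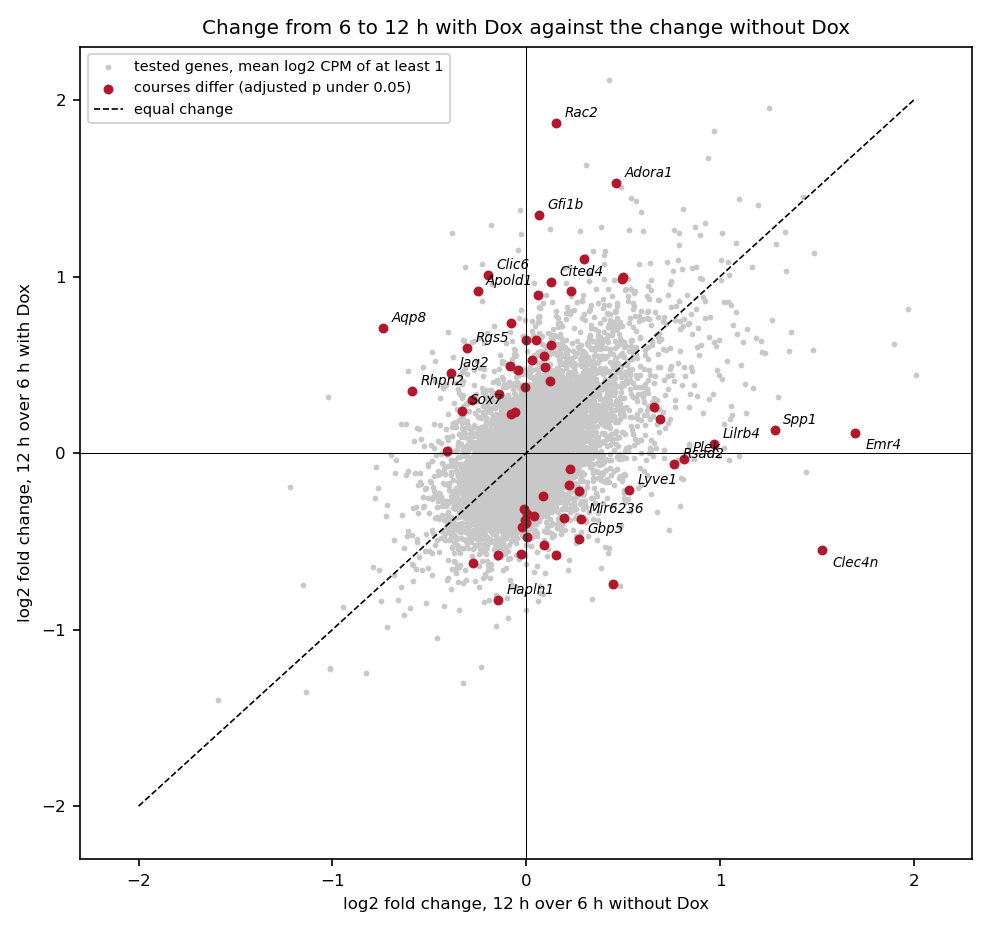
Log2 fold change of 12 h over 6 h with Dox (vertical axis) against that without Dox (horizontal axis) for the 12451 tested genes whose log2 CPM averaged 1 or more; red points are genes whose courses differed at an adjusted p under 0.05, and the dashed line marks equal change. Rac2, Adora1, Gfi1b and Clic6 lie above the line and Emr4, Clec4n and Spp1 below it.

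Genes that gained more with Dox included a chloride channel gene, a blood repressor and a Notch ligand. Clic6 (ENSMUSG00000022949, chromosome 16, 92485736 to 92541243, plus strand), which encodes an intracellular chloride channel protein, had 66.2 and 58 CPM at 12 h of Dox, against 28.6 and 33 CPM at 6 h. Untreated cells had 16.5 and 16.5 CPM at 12 h, against 19 and 18.9 CPM at 6 h. Clic6 thus rose with Dox (1.01 ± 0.09) and not without it (-0.20), a difference of 1.21 ± 0.14 (adjusted p = 3.08e-07). Gfi1b (ENSMUSG00000026815, chromosome 2, 28609450 to 28621982, minus strand), one of the repressors downstream of RUNX1, had 18.4 and 12.8 CPM at 12 h of Dox, against 5.06 and 7.13 CPM at 6 h, and without Dox 17.8 and 16.6 CPM at 12 h, against 15.2 and 17.9 CPM at 6 h. At 12 h of Dox, 18.4 CPM lay above all untreated values and 12.8 CPM below them, while both Dox 6 h libraries lay far below. The rise with Dox was 1.35 ± 0.16 (adjusted p = 2.21e-06) and the difference 1.28 ± 0.22 (adjusted p = 0.00735).

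Jag2 (ENSMUSG00000002799, chromosome 12, 112908590 to 112929495, minus strand), a Notch ligand gene, had 30.4 and 27.7 CPM at 12 h of Dox, against 21.2 and 21.5 CPM at 6 h, and without Dox 9.97 and 9.63 CPM at 12 h, against 11 and 15.4 CPM at 6 h, a difference of 0.84 ± 0.17 (adjusted p = 0.0106). Its rise under Dox was 0.45 ± 0.11 (adjusted p = 0.00195), and was not called without Dox 12 h replicate 1 (0.38). Rgs5, known as a marker of pericytes, had 44.1 and 34.2 CPM at 12 h of Dox, against 27.2 and 25.6 CPM at 6 h, and without Dox 32.1 and 25.9 CPM at 12 h, against 36.2 and 33.9 CPM at 6 h, a difference of 0.90 ± 0.14 (adjusted p = 0.00188). Rac2 did not rise in untreated cells (0.16), a difference of 1.71 ± 0.35 (adjusted p = 0.0113). The water channel gene Aqp8 had 6.01 and 4.94 CPM at 12 h of Dox, against 3.26 and 3.53 CPM at 6 h, and without Dox 2.07 and 2.12 CPM at 12 h, against 3.62 and 3.33 CPM at 6 h. It rose with Dox (0.71) and fell without it (-0.74), a difference of 1.45 ± 0.29. The rise of Aqp8 was not called without Dox 6 h replicate 2 (0.78) or without Dox 12 h replicate 1 (0.53). Differences of 1.17 for Apold1, 1.06 for Adora1, 0.94 for Rhpn2 and 0.84 for the co-activator gene Cited4 completed the 10 largest in this direction.

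Genes that gained less with Dox included genes of macrophages, of interferon response and of lymphatic endothelium. Spp1 (ENSMUSG00000029304, chromosome 5, 104435118 to 104441050, plus strand), which encodes osteopontin, had 17.6 and 16.6 CPM at 12 h of Dox, against 15.5 and 15.8 CPM at 6 h. Untreated cells had 44.9 and 44.4 CPM at 12 h, against 18.8 and 17.6 CPM at 6 h, so the 12 h untreated libraries stood apart from all the others. The difference was -1.15 ± 0.13 (adjusted p = 2.06e-07). Plek (ENSMUSG00000020120, chromosome 11, 16971206 to 17052381, minus strand), which encodes pleckstrin of platelets and leukocytes, had 99.6 and 88.6 CPM at 12 h of Dox, against 104 and 90.9 CPM at 6 h, and these groups overlapped. Without Dox it had 221 and 215 CPM at 12 h, against 125 and 123 CPM at 6 h, a difference of -0.85 ± 0.09 (adjusted p = 2.06e-07). Lyve1, which lymphatic endothelium and macrophages use to bind hyaluronan, had 12.4 and 12.2 CPM at 12 h of Dox, against 14.7 and 13.9 CPM at 6 h, and without Dox 40.2 and 36.8 CPM at 12 h, against 26.4 and 26.6 CPM at 6 h (-0.74 ± 0.15, adjusted p = 0.00944). Clec4n, a C-type lectin gene of myeloid cells, had 1.87 and 0.577 CPM at 12 h of Dox, against 1.87 and 2.24 CPM at 6 h, and without Dox 5.7 and 5.0 CPM at 12 h, against 1.93 and 1.63 CPM at 6 h (-2.08 ± 0.41, adjusted p = 0.0113).

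Emr4 (-1.58) and Lilrb4 (-0.92), both of macrophages, Rsad2 (-0.83) and Gbp5 (-0.76), both induced by interferon, and Mir6236 (-0.65), an uncertain gene model, also differed. Lilrb4 has near-identical copies, and its value is uncertain. Hapln1, a matrix link protein gene, had 487 and 492 CPM at 12 h of Dox, against 817 and 926 CPM at 6 h, and without Dox 845 and 949.9 CPM at 12 h, against 1079 and 907 CPM at 6 h. It fell with Dox (-0.83 ± 0.09) and was not called without it (-0.15), a difference of -0.69 ± 0.12 (adjusted p = 0.0458). Of the 21 genes named for their difference, Sox7 among them, Clic6, Spp1 and Plek kept the call in all 17 alternative fits. Sox7 and Rgs5 kept it whichever library was left out, and the other 16 lost it without at least 1 library.

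**Figure D3:**
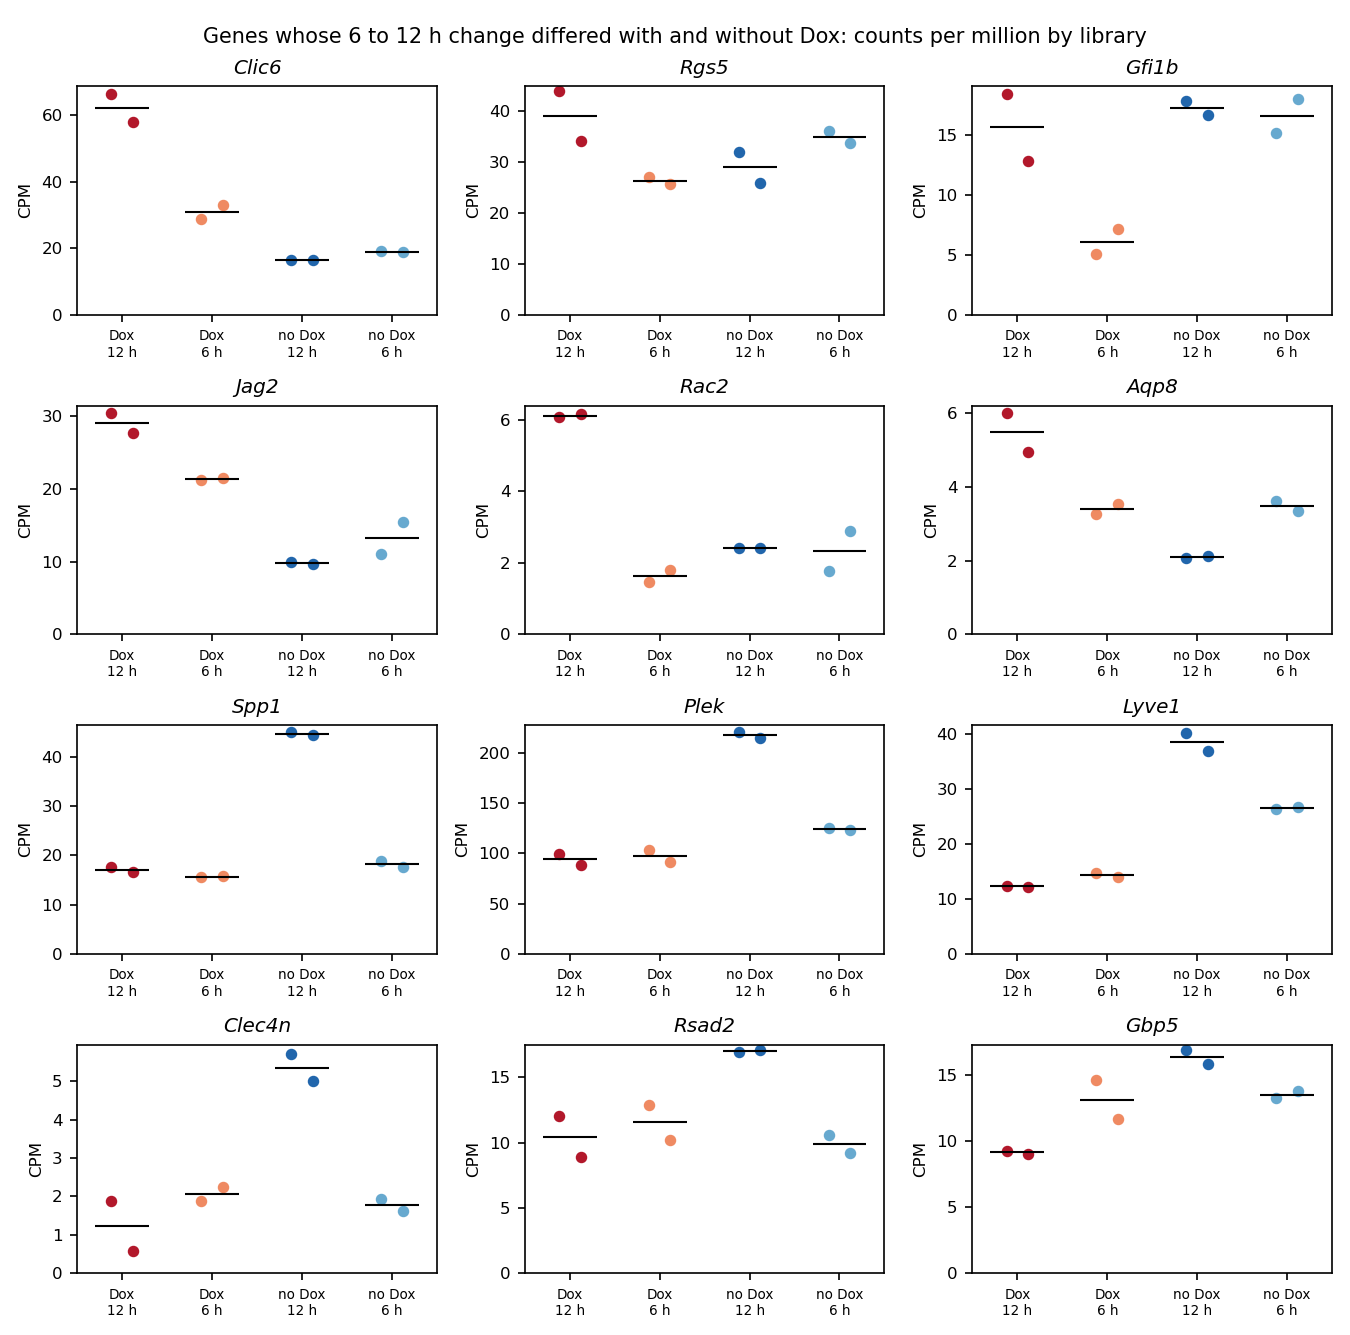
CPM (counts scaled to library size, linear axis from 0) by library for 12 genes whose change between 6 h and 12 h differed with and without Dox; points are single libraries and lines are group means. Both Dox 12 h libraries lie above both Dox 6 h libraries for Clic6 and Gfi1b, and both untreated 12 h libraries lie far above both untreated 6 h libraries for Spp1 and Plek.

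Many arterial and Notch genes rose. Notch signalling, in which ligands of the DLL and JAG families on 1 cell switch on HES and HEY factors in the next, sets arterial identity. Of 21 tested genes of this list, 12 rose and none fell, with a median log2 fold change of 0.32, against a median of -0.00 over all tested genes, where 9.05% rose and 10.2% fell. In untreated cells 7 rose and none fell, with a median of 0.09. Among ligands, Dll4 had 74.8 and 72.5 CPM at 12 h of Dox, against 45.3 and 48.4 CPM at 6 h (0.65 ± 0.07, adjusted p = 4.83e-09), and Jag2 rose as given above. Among targets, Hey1 had 58.7 and 63.8 CPM at 12 h of Dox, against 32.7 and 37.5 CPM at 6 h (0.79 ± 0.09, adjusted p = 1.6e-08). The groups did not overlap for Dll4 or Hey1. The targets Hey2 (-0.01) and Hes1 (0.07) were not called, and their groups overlapped. Of the 21 genes, 9 were not called with Dox, and the difference between the courses was called for 1, Jag2.

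Gja5 (ENSMUSG00000057123, chromosome 3, 97032416 to 97053634, plus strand), which encodes the arterial connexin 40, had 71.7 and 77 CPM at 12 h of Dox, against 29.2 and 32.8 CPM at 6 h (1.25 ± 0.09, adjusted p = 4.11e-11), and without Dox 41.8 and 51.3 CPM at 12 h, against 26.2 and 28.9 CPM at 6 h. Nrp1, a co-receptor for VEGF and semaphorins, had 712 and 648 CPM at 12 h of Dox, against 496 and 485 CPM at 6 h (0.47 ± 0.05, adjusted p = 1.23e-09). Sox17, a SOXF gene counted in the list, had 56.1 and 52.1 CPM at 12 h and 53.4 and 55.2 CPM at 6 h of Dox (0.00 ± 0.07, not called). Sox18 was not called either (-0.06 ± 0.06). Of 26 axon guidance genes, which also guide vessels, 14 rose and 2 fell, with a median of 0.23. Over all tested genes 9.05% rose and 10.2% fell. The semaphorin gene Sema3g had 54.2 and 55.2 CPM at 12 h of Dox, against 28.2 and 32.9 CPM at 6 h (0.83 ± 0.08, adjusted p = 8.84e-10), the netrin gene Ntn4 rose by 1.26 and the receptor gene Plxna2 by 0.44, while Sema3c (-0.76) and Sema3d (-1.05) fell. Sema3d lost its call in 6 of 14 alternative fits, among them every fit that left out 1 of the 4 Dox libraries, so that 1 of the 26 fell there. In untreated cells 8 of the 26 rose and none fell.

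Some general endothelial markers fell slightly. Of 26 tested, 7 fell, 1 rose and 18 were not called, with a median of -0.07. Over all tested genes 10.2% fell and 9.05% rose. Tek, the angiopoietin receptor gene, had 255 and 277 CPM at 12 h of Dox, against 315 and 333 CPM at 6 h (-0.29 ± 0.05, adjusted p = 0.000108). Egfl7, a secreted factor of endothelium, had 78.1 and 72.8 CPM at 12 h of Dox, against 95 and 96.6 CPM at 6 h (-0.34 ± 0.07, adjusted p = 0.000235). Kdr fell (-0.23), as did Plvap (-0.23), and Vwf, which encodes von Willebrand factor, rose (0.64). Vwf and Plvap were called neither without Dox 6 h replicate 2 (0.59 and -0.20) nor without Dox 12 h replicate 1 (0.30 and -0.19), and Kdr was not called without Dox 6 h replicate 2 (-0.16). Cdh5 was not called (0.03 ± 0.05). The summed level of the list was 5279 and 5443 CPM at 12 h, against 5450 and 5731 CPM at 6 h. The number that fell was 2 without Dox 6 h replicate 2 and 3 without Dox 12 h replicate 1. Of 13 venous and lymphatic genes, 2 rose and 2 fell, against the same shares over all tested genes. Aplnr, the apelin receptor gene, had 132 and 123 CPM at 12 h of Dox, against 201 and 217 CPM at 6 h (-0.71 ± 0.06, adjusted p = 1.56e-11), and Pdpn fell (-0.37), while Prox1, a master factor of lymphatic identity, rose (0.68), as did Stab2 (1.77), a scavenger receptor gene of sinusoidal endothelium. Stab2 was scarce, with at most 129 counts in any of the 12 libraries, and ranged from 0.31 to 2.12 over 14 alternative fits. It was not called without Dox 6 h replicate 2 (1.88) or without Dox 12 h replicate 1 (0.94). Pdpn was called neither in these fits (-0.35 and -0.17) nor without Dox 6 h replicate 1 (-0.37).

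Blood transcription factors and RUNX1 target genes rose in part. Runx1 (ENSMUSG00000022952, chromosome 16, 92601466 to 92826149, minus strand) had 160.3 and 152 CPM at 12 h of Dox, against 134 and 117 CPM at 6 h (0.32 ± 0.06, adjusted p = 6.29e-05), and without Dox 173 and 166 CPM at 12 h, against 149 and 145 CPM at 6 h, where it also rose (0.20). The difference between the courses was not called (0.12 ± 0.08, adjusted p = 0.662). Gfi1, the paralog of Gfi1b, had 8.05 and 9.3 CPM at 12 h and 6.65 and 8.38 CPM at 6 h of Dox, with overlap, and was not called (0.16 ± 0.16). Of 25 blood transcription factors, 10 rose and 2 fell, with a median of 0.27, against 5 and 1 in untreated cells. Over all tested genes 9.05% rose and 10.2% fell with Dox. Lyl1, a bHLH factor gene of blood progenitors, had 37.6 and 34.8 CPM at 12 h of Dox, against 27 and 26.7 CPM at 6 h (0.44), and Myb, which acts in definitive progenitors, had 21.2 and 18.2 CPM at 12 h of Dox, against 14.1 and 14.7 CPM at 6 h (0.47). The ETS factor genes Etv6 (-0.19) and Fli1 (-0.17) fell, with the call of Fli1 lost in 12 of 14 alternative fits and that of Etv6 without Dox 6 h replicate 1 (-0.13) or without Dox 12 h replicate 2 (-0.17). The count that rose was 6 without Dox 6 h replicate 2 and 6 without Dox 12 h replicate 1, and Myb was not called without Dox 12 h replicate 1 (0.33).

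Of 24 RUNX1 target genes, taken from general knowledge, 10 rose and 1 fell, with a median of 0.43. The shares over all tested genes were 9.05% higher and 10.2% lower. Summed over the list, levels were 698.7 and 658.2 CPM at 12 h of Dox, against 673.7 and 649.9 CPM at 6 h. These summed levels overlapped. In untreated cells 7 rose and 1 fell, with a median of 0.35. The count that rose was 5 without Dox 6 h replicate 2, and 5 without Dox 12 h replicate 1. Coro1a, an actin regulator gene of leukocytes, had 5.73 and 5.84 CPM at 12 h of Dox, against 2.29 and 2.68 CPM at 6 h (1.19 ± 0.19, adjusted p = 1.72e-05), and without Dox 7.83 and 7.69 CPM at 12 h, against 3.41 and 4.08 CPM at 6 h. Csf2rb, the shared receptor chain gene for GM-CSF, IL-3 and IL-5, had 26 and 27.7 CPM at 12 h of Dox, against 21.1 and 16.5 CPM at 6 h (0.54 ± 0.10, adjusted p = 0.00018). Csf2rb was not called without Dox 6 h replicate 2 (0.34). Mycn fell (-0.26), and was not called without Dox 12 h replicate 1 (-0.19). Itga2b, which encodes the early blood marker CD41, had 53.6 and 49.3 CPM at 12 h and 55.2 and 57.8 CPM at 6 h of Dox and was not called (-0.13 ± 0.07). Of 23 pan-haematopoietic genes 7 rose and 1, Arhgdib (-0.18), fell, against the same shares over all tested genes. The call of Arhgdib was lost in 7 of 14 alternative fits. The count that rose was 5 without Dox 6 h replicate 2, 3 without Dox 12 h replicate 1 and 11 without Dox 12 h replicate 2.

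The summed level of 23 erythroid genes was 2596 and 2450 CPM at 12 h of Dox, against 1781 and 1859 CPM at 6 h, with Tspo2 at 0 counts in all 12 libraries. Without Dox it was 2882 and 1894 CPM at 12 h, against 2209 and 1997 CPM at 6 h. Of 20 tested erythroid genes 3 rose and 1 fell, against 9.05% higher and 10.2% lower over all tested genes. Hbb-y and Alas2, the first enzyme gene of haem synthesis (0.86), were among the rises, and Tfrc, the transferrin receptor gene (-0.26), fell. Of 18 megakaryocyte and platelet genes 1 rose, F2rl2 (0.41), beside 9.05% of all tested genes. The summed level of the list was 1986 and 2077 CPM at 12 h of Dox, against 1972 and 1899 CPM at 6 h. None of the 18 rose without Dox 6 h replicate 2 or without Dox 12 h replicate 1, and 4 rose without Dox 12 h replicate 2. The part that lineage-committed cells have in the rise of blood genes was not tested. With erythroid, histone, histocompatibility and mitochondrial genes left out before scaling, an alternative chosen after seeing the data, 2932 genes were called, 53.4% of them higher.

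Some myeloid and interferon response genes rose in both courses. Interferons act through STAT and IRF factors, which bind a short DNA element, the ISRE, before antiviral genes. Of 22 interferon response genes 5 rose with Dox and none fell, with a median log2 fold change of 0.45. Without Dox 13 rose, with a median of 1.05. The shares of all tested genes that rose were 9.05% with Dox and 4.62% without it. Isg15 (ENSMUSG00000035692, chromosome 4, 156199424 to 156200818, minus strand), which encodes a ubiquitin-like modifier, had 2.79 and 2.63 CPM at 12 h of Dox, against 0.97 and 1.25 CPM at 6 h (1.25 ± 0.28, adjusted p = 0.000985), and without Dox 4.77 and 3.91 CPM at 12 h, against 1.9 and 1.26 CPM at 6 h. Ddx58, which encodes the RNA sensor RIG-I, had 10.5 and 9.62 CPM at 12 h of Dox, against 8.73 and 6.47 CPM at 6 h (0.46), and without Dox 12.5 and 12.5 CPM at 12 h, against 7.23 and 6.37 CPM at 6 h (0.85). Irf9 (0.59) and Stat2 (0.32) rose with Dox, as did Xaf1 (0.85), named here because of the small count. The count that rose was 1 without Dox 6 h replicate 2 and 3 without Dox 12 h replicate 1, and Ddx58 was called in neither of these fits (0.22 and 0.39). Irf9 (0.45) and Stat2 (0.31) were not called in the first. Rsad2, which encodes the antiviral enzyme viperin, had 12 and 8.92 CPM at 12 h of Dox, against 12.9 and 10.2 CPM at 6 h, and without Dox 16.9 and 17.1 CPM at 12 h, against 10.6 and 9.19 CPM at 6 h. It did not change with Dox beyond the spread of its libraries (-0.06 ± 0.13) and rose without it (0.76, adjusted p = 9.86e-05), a difference of -0.83 ± 0.19 (adjusted p = 0.0317).

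The 150 bases before the start of Isg15 and Rsad2 are shown because both hold the ISRE, while Isg15 rose with Dox and Rsad2 was not called. They come from RefSeq on GRCm38.p6, 5′ to 3′ on the gene's minus strand, at chr4:156200819-156200968 for Isg15 and chr12:26456453-26456602 for Rsad2. Capitals mark matches on either strand to the ISRE core searched for, which is GAAA, any 2 bases, then GAAA. Isg15 has 3 overlapping matches, which begin 78, 72 and 66 bases before the start, and Rsad2 has 1 on the opposite strand, 120 bases before it.
Isg15: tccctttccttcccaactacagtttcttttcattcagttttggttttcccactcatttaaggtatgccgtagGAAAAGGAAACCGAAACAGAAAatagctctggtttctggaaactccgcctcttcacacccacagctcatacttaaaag
Rsad2: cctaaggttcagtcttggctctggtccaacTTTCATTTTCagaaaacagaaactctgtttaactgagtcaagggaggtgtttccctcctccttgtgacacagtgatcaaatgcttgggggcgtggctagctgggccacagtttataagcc
In windows from 250 bases before to 50 after the start, the motif was found in 9 of the 17 interferon response genes with a promoter in the RefSeq table (52.9%), against 313 of 10865 tested genes with one (2.88%). The table held 17 of the 22 tested list members, under 80%, so a check of the whole list is void. A match is a description of letters, not of binding.

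Of 22 myeloid genes 5 rose and 1 fell with Dox, with a median of 0.50. Without Dox 10 rose, with a median of 0.82. Over all tested genes 9.05% rose and 10.2% fell with Dox, and 4.62% rose without it. Ncf1, an NADPH oxidase subunit gene, had 5.31 and 3.72 CPM at 12 h of Dox, against 1.87 and 2.31 CPM at 6 h (1.13 ± 0.22, adjusted p = 0.000291), and without Dox 8.05 and 7.69 CPM at 12 h, against 3.16 and 2.15 CPM at 6 h. Spi1, which encodes the myeloid master factor PU.1, had 6.48 and 5.71 CPM at 12 h of Dox, against 3.88 and 3.67 CPM at 6 h (0.72 ± 0.20, adjusted p = 0.0102), and without Dox 14.5 and 10.3 CPM at 12 h, against 8.36 and 8.82 CPM at 6 h. Itgam (0.89), Cx3cr1 (1.28) and Fcer1g (0.90) rose, and Cyba fell (-0.23), with its call lost in 11 of 14 alternative fits. The summed level of the 26 genes of the list was 103.6 and 101.7 CPM at 12 h of Dox, against 91.7 and 93.9 CPM at 6 h, with the granule genes Ctsg and Elane and the lysozyme gene Lyz1 at 0 counts in these 4 libraries. Only 1 myeloid gene rose without Dox 6 h replicate 2, and 2 without Dox 12 h replicate 1. Spi1 was called in neither fit (0.67 and 0.60), Itgam (0.73) and Cx3cr1 (1.09) were not called in the first, and Ncf1 was not called without Dox 12 h replicate 1 (0.79).

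**Figure D4:**
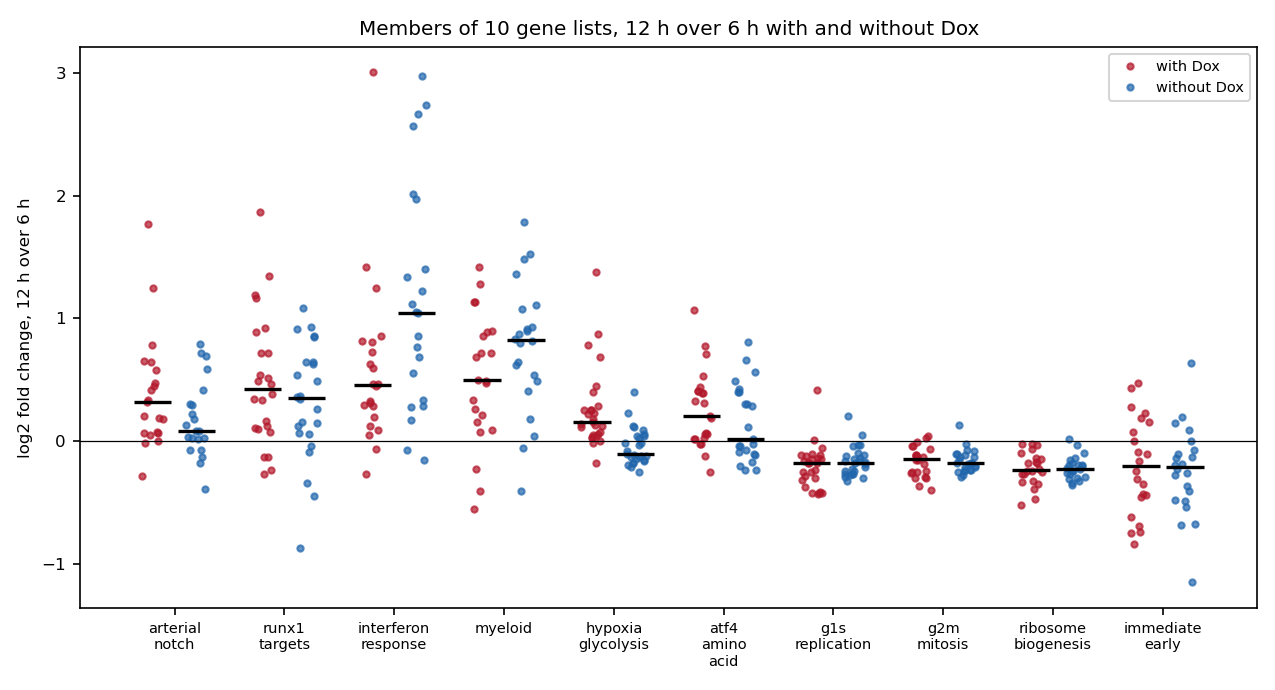
Log2 fold change of 12 h over 6 h for each tested member of 10 gene lists, with Dox (red) and without Dox (blue); points are genes and black lines are list medians. Medians with Dox are 0.32 for arterial and Notch genes, 0.45 for interferon response genes and -0.23 for ribosome biogenesis genes, and without Dox the interferon response median is 1.05.

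Several collagen genes rose and 3 contractile genes fell. Of 19 smooth muscle and mesenchyme genes 10 rose and 3 fell, beside 9.05% higher and 10.2% lower over all tested genes. The collagen genes Col1a2, with 457 and 412 CPM at 12 h of Dox, against 287 and 261 CPM at 6 h (0.67 ± 0.05, adjusted p = 1.56e-11), and Col1a1, with 1629 and 1683 CPM at 12 h of Dox, against 1198 and 1088 CPM at 6 h (0.54), rose, as did Snai2, which encodes the mesenchymal repressor SLUG (0.66). The contractile genes Cnn1, Acta2 (-0.20) and Tagln (-0.65) fell. In untreated cells 6 of the 19 rose and 1 fell. Only Cnn1 fell without Dox 6 h replicate 2, and Acta2 was not called without Dox 12 h replicate 1 either (-0.10). The summed level of the list was 15270 and 16310 CPM at 12 h of Dox, against 15480 and 15500 CPM at 6 h. Of 24 extracellular matrix genes 9 rose and 2 fell, against the same shares over all tested genes. Loxl2, a cross-linking enzyme gene, had 261 and 257 CPM at 12 h of Dox, against 204 and 181 CPM at 6 h (0.43 ± 0.05, adjusted p = 1.38e-07), and the laminin chain gene Lamb1 rose by 0.29. The basement membrane genes Lama4 (-0.20) and Nid1 (-0.15) fell, Nid1 with its call lost in 10 of 14 alternative fits, and Lama4 without Dox 6 h replicate 2 or Dox 12 h replicate 2 (-0.18 and -0.17). The count that rose was 5 without Dox 6 h replicate 2, where none fell. Of 14 cardiac genes 3 rose and 3 fell, again beside these shares. Hand1 (0.27), Myh7 (1.06) and Mef2c (0.35) rose, and Actc1, Nppb and Myl7 (-1.82) fell. Myh7 was not called without Dox 6 h replicate 2 (0.85). Actc1 and Nppb kept their calls in all 14 alternative fits. Myl7 was not called with DESeq2, with the filter of 1 CPM in 4 libraries, or without Dox 6 h replicate 2 or Dox 12 h replicate 2. With that filter it may not have been tested. Its fold change lay beyond the largest fall named above, but Myl7 did not meet both conditions set there, on level and on overlap. The summed level of the cardiac list was 793.6 and 827 CPM at 12 h of Dox, against 734.6 and 734.7 CPM at 6 h, with Myl2 at 0.

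Many genes of DNA replication and of mitosis fell by small amounts. Before cells divide, E2F factors drive replication genes, and late genes are driven through the CHR, a short element near their start. Of 26 replication and G1/S genes 13 fell and 1 rose, with a median of -0.18. In untreated cells 7 fell, also with a median of -0.18. Over all tested genes 10.2% fell and 9.05% rose with Dox, and 3.41% fell without it. The count that fell was 8 without Dox 6 h replicate 2, 8 without Dox 12 h replicate 1 and 8 without Dox 12 h replicate 2. Rrm2, a ribonucleotide reductase subunit gene, had 134 and 138 CPM at 12 h of Dox, against 168 and 172 CPM at 6 h (-0.32 ± 0.06, adjusted p = 4.06e-05). Pcna, the polymerase clamp gene, had 49 and 48.8 CPM at 12 h of Dox, against 62.2 and 68.7 CPM at 6 h (-0.42 ± 0.07, adjusted p = 4.39e-05). The groups did not overlap for either. Mcm5 (-0.30) fell as well, and E2f2 rose (0.42), though not without Dox 6 h replicate 2 (0.34) or without Dox 12 h replicate 1 (0.37).

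Of 24 G2/M and mitosis genes 11 fell and none rose, with a median of -0.14. In untreated cells 13 fell, with a median of -0.18. The shares of all tested genes that fell were 10.2% with Dox and 3.41% without it. The count that fell was 7 without Dox 6 h replicate 1, without Dox 12 h replicate 1 and without Dox 12 h replicate 2. Birc5, which encodes survivin, had 67.3 and 68.6 CPM at 12 h of Dox, against 87.2 and 91.8 CPM at 6 h (-0.40 ± 0.06, adjusted p = 8.88e-06). Ccna2, the cyclin A2 gene, had 177 and 169.9 CPM at 12 h of Dox, against 219 and 208 CPM at 6 h (-0.30 ± 0.05, adjusted p = 5.01e-05), and Ccnb1 fell by 0.37. Cdk1 (ENSMUSG00000019942, chromosome 10, 69336635 to 69352938, minus strand), the mitotic kinase gene, had 152 and 152 CPM at 12 h of Dox, against 174 and 196 CPM at 6 h (-0.29 ± 0.06, adjusted p = 0.000221). The fall of Cdk1 was not called without Dox 6 h replicate 2 (-0.19).

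The CHR motif TTTGAA, sought on both strands, was found in the windows of 15 of the 20 G2/M genes with a RefSeq promoter (75.0%), against 1277 of 10865 tested genes with one (11.8%). The table held 20 of the 24 tested members but 70.8% of all tested genes, under 80%, so a check against all genes is void and both shares are descriptions. The 150 bases before the start of Cdk1 are shown as the member with both a fall and 2 matches, in capitals, 71 and 15 bases before the start. They lie at chr10:69352913-69353062 on GRCm38.p6 and are written on the gene's minus strand.
Cdk1: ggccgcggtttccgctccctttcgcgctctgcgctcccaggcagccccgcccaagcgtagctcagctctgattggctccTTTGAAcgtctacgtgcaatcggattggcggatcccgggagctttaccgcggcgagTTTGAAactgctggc

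Of 16 D cyclin, CDK inhibitor and related genes, most of which slow the cell cycle, 8 rose and 1 fell, against 7 and 1 in untreated cells. Cdkn1c (ENSMUSG00000037664, chromosome 7, 143458350 to 143461050, minus strand), which encodes the CDK inhibitor p57, had 206 and 197 CPM at 12 h of Dox, against 115 and 109.8 CPM at 6 h (0.85 ± 0.05, adjusted p = 4.71e-15), and without Dox 202 and 189 CPM at 12 h, against 136 and 131 CPM at 6 h. Ccng2 rose by 0.45 and Ccnd2 by 0.28, and Ccnd1 fell (-0.33). Of 17 p53 target genes 3 rose and 1 fell with Dox, against 9.05% and 10.2% of all tested genes, and 8 rose without it. Cdkn1a, the p21 gene, had 247 and 267 CPM at 12 h of Dox, against 210.3 and 213 CPM at 6 h (0.28), Sesn2 (0.40) and Perp (0.26) rose, Perp though not without Dox 12 h replicate 2 (0.20), and Mdm2 fell (-0.14), with its call lost in 12 of 14 alternative fits.

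Ribosome biogenesis genes had the greatest share of falls among the 38 lists. Of 22, which make and assemble ribosomal RNA and its particles in the nucleolus, 15 fell and none rose, with a median of -0.23. In untreated cells 11 fell, with a median of -0.22. The shares of all tested genes that fell were 10.2% with Dox and 3.41% without it. Nop58, a core protein gene of snoRNA particles, had 147 and 152 CPM at 12 h of Dox, against 189 and 192 CPM at 6 h (-0.35 ± 0.05, adjusted p = 3.82e-06). Dkc1, which encodes dyskerin, had 63.9 and 67.2 CPM at 12 h of Dox, against 85.9 and 79.6 CPM at 6 h (-0.34 ± 0.06, adjusted p = 0.000205). Gnl3 (-0.33) and Ddx21 (-0.24) fell too, and all 22 had a negative fold change. The count was 7 without Dox 12 h replicate 1. Of 7 tested genes of the mitochondrial genome 3 fell, and 6 of the 13 in the list stood at 0 in all libraries. mt-Co1 had 5269 and 4660.2 CPM at 12 h of Dox, against 6386 and 6488 CPM at 6 h (-0.37 ± 0.08, adjusted p = 0.00691), mt-Nd5 fell by 0.48 and mt-Nd1 by 0.43. None of these 3 was called without Dox 6 h replicate 2, and mt-Nd5 and mt-Nd1 were not called in any fit that left out 1 of the 4 Dox libraries.

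Several immediate early genes, which respond to serum and stress within minutes, fell. Of 22, 8 fell and 1 rose, with a median of -0.20, against 9 and 1 in untreated cells, where the median was -0.21. For this list and those below, 10.2% of all tested genes fell with Dox and 9.05% rose. Klf2, a flow-responsive factor gene of endothelium, had 34 and 40.1 CPM at 12 h of Dox, against 58.6 and 59.7 CPM at 6 h (-0.69 ± 0.08, adjusted p = 4.91e-08), and without Dox 41 and 44.9 CPM at 12 h, against 67.3 and 72 CPM at 6 h. Klf6 had 679.9 and 689 CPM at 12 h of Dox, against 934 and 919 CPM at 6 h (-0.44 ± 0.05, adjusted p = 1.02e-08). The YAP-responsive matricellular genes Cyr61 (-0.43) and Ctgf (-0.35) fell, and Jund rose (0.19), though not without Dox 6 h replicate 2 (0.16) or without Dox 12 h replicate 2 (0.16). Of 20 TGF-beta and BMP target genes 5 fell and 3 rose, with Tgfbi (0.80) and Atoh8 (0.83) among those that rose, and Atoh8 not called without Dox 6 h replicate 1 (0.68) or without Dox 12 h replicate 2 (0.66). The count that fell was 2 without Dox 6 h replicate 2 and 2 without Dox 12 h replicate 1. Of 15 inflammatory genes 3 fell, Icam1 (-0.48), Cxcl1 (-0.72) and Cxcl10, and none rose, with 1 fall left without Dox 12 h replicate 1. Cxcl1 was called neither there (-0.63) nor without Dox 6 h replicate 2 (-0.48).

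Rises of hypoxia and glycolysis genes depended on single libraries. Of 27, 8 rose and none fell, with a median of 0.15. In untreated cells none rose and 2 fell, with a median of -0.11. Over all tested genes 9.05% rose and 10.2% fell with Dox, and 4.62% rose and 3.41% fell without it. Pfkl, a phosphofructokinase gene, had 62.7 and 57.9 CPM at 12 h of Dox, against 39.5 and 36.1 CPM at 6 h (0.69 ± 0.14, adjusted p = 0.0051), and without Dox 49.3 and 37.7 CPM at 12 h, against 42.4 and 48.8 CPM at 6 h. Pdk1, which limits the entry of pyruvate into mitochondria, had 100.4 and 85.3 CPM at 12 h of Dox, against 73.7 and 68.7 CPM at 6 h (0.40 ± 0.09, adjusted p = 0.00626). Hk2 (0.26) and Hk1 (0.25), hexokinase genes, rose as well. None of the 27 was called without Dox 6 h replicate 2 and 1, neither Pfkl nor Pdk1, was called without Dox 12 h replicate 1. Limma-trend on RPKM called 3, and no gene of the list was called for its difference between the courses. The summed level was 7539 and 7415 CPM at 12 h of Dox, against 7230 and 6834 CPM at 6 h, and without Dox 7326 and 7221 CPM at 12 h, against 7407 and 7752 CPM at 6 h. The motif ACGTG, the core of the hypoxia response element, was found in 14 of 24 promoters of the list (58.3%), against 25.2% of the 10865 tested genes with one. The RUNX motif TGTGGT was in 1 of 16 promoters of RUNX1 target genes (6.25%), against 12.0% of all, with 16 of the 24 genes of that list in the promoter table. The motif TGGGAA of the Notch factor RBPJ was in 3 of 17 promoters of arterial and Notch genes (17.6%), against 23.3% of all. The table covers 70.8% of tested genes, under 80%, so comparisons of any motif with all promoters are void as checks and are given as descriptions.

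Genes of the ATF4 response, which answers to a shortage of amino acids, rose in 10 of 23 cases and fell in 1, with a median of 0.20, against 5 and 1 in untreated cells. Trib3, a pseudokinase gene, had 15.7 and 14.4 CPM at 12 h of Dox, against 7.97 and 6.72 CPM at 6 h (1.07 ± 0.14, adjusted p = 2.04e-07), and without Dox 13.2 and 11 CPM at 12 h, against 8.88 and 9.19 CPM at 6 h. Ddit4, an inhibitor gene of mTORC1 signalling, had 95.6 and 93.5 CPM at 12 h of Dox, against 57.9 and 53.3 CPM at 6 h (0.77 ± 0.07, adjusted p = 2.35e-11), and rose without Dox too (0.56). Sesn2 and Aldh18a1 (0.39) also rose, while the serine synthesis gene Psat1 fell (-0.25). Over all tested genes 9.05% rose and 10.2% fell. Of 18 genes of the unfolded protein response of the endoplasmic reticulum 1, Herpud1 (0.31), rose and 2 fell, with a median of -0.08, and none was called without Dox 6 h replicate 2.

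Of 22 cholesterol synthesis genes 4 fell and 1, Fdft1 (0.18), rose, with its call lost in 3 of the 4 fits without a Dox library. The shares over all tested genes were 9.05% higher and 10.2% lower. Msmo1, which encodes a sterol oxidase, had 272 and 273 CPM at 12 h of Dox, against 316 and 352 CPM at 6 h (-0.30 ± 0.05, adjusted p = 5.56e-05). The count that fell was 2 without Dox 6 h replicate 2 and 2 without Dox 12 h replicate 2. Abca1, the cholesterol exporter gene and a target of LXR receptors, had 35.4 and 34.6 CPM at 12 h of Dox, against 19.7 and 18.8 CPM at 6 h (0.87 ± 0.09, adjusted p = 1.04e-09), and without Dox 17.5 and 17.9 CPM at 12 h, against 11.1 and 11 CPM at 6 h. It was 1 of 3 members of the 12 lipid export genes that rose, with Scd2 (0.20) and Srebf1 (0.15), while Apoe (-0.30) and Fasn (-0.14) fell. Fasn lost its call in 12 of 14 alternative fits and Srebf1 in 6, both whichever of the 4 Dox libraries was left out, so that 2 rose and 1 fell there. Of 13 heat shock genes 3 fell, among them Hspa8 (-0.26), and Bag3 rose (0.24), with 1 fall left without Dox 6 h replicate 2 and no rise without Dox 12 h replicate 2.

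Of 13 retinoic acid genes 3 rose and 2 fell, beside 9.05% higher and 10.2% lower over all tested genes. Aldh1a3, which makes retinoic acid, had 2.68 and 2.63 CPM at 12 h of Dox, against 1.11 and 0.698 CPM at 6 h (1.64 ± 0.36, adjusted p = 0.00127), and without Dox 0.712 and 0.666 CPM at 12 h, against 1.09 and 0.296 CPM at 6 h. Aldh1a1, which encodes a related enzyme, fell instead, with 8.38 and 9.24 CPM at 12 h of Dox, against 14 and 13.7 CPM at 6 h (-0.66 ± 0.14, adjusted p = 0.000513). Dhrs3 (0.38) rose and Rdh10 fell (-0.40), though not without Dox 6 h replicate 2 (-0.39) or without Dox 12 h replicate 1 (-0.32). Without Dox 6 h replicate 2 the count that rose was 1, and neither Aldh1a3 (1.26) nor Dhrs3 (0.35) was called. Of 18 clock genes 6 rose and 1, Nr1d2 (-0.34), fell, among them Bhlhe40 with 71.4 and 66.6 CPM at 12 h of Dox, against 52.8 and 52.8 CPM at 6 h (0.39 ± 0.07, adjusted p = 6.97e-05), Rora (0.67) and the period genes Per1 (0.43) and Per2 (0.97). Leaving out Dox 6 h replicate 2 left 2 clock genes that rose, as did leaving out Dox 12 h replicate 1, and no clock gene was called in untreated cells. Over all tested genes 8.03% were called in untreated cells. The difference between the courses was called for none of the 18 clock genes, and 12 had the same sign in both courses. Nr1d2, the only clock gene that fell, was not called whichever of the 4 Dox libraries was left out. Per2 was not called without Dox 6 h replicate 2 (0.79), Dox 12 h replicate 1 (1.10) or Dox 12 h replicate 2 (0.89), Per1 without Dox 6 h replicate 2 (0.44), and Rora without Dox 12 h replicate 1 (0.45). Of 16 Wnt target and antagonist genes, Dkk2 rose (0.58) and Apcdd1 (-0.47) and Ccnd1 fell, beside 9.05% higher and 10.2% lower over all tested genes.

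**Figure D5:**
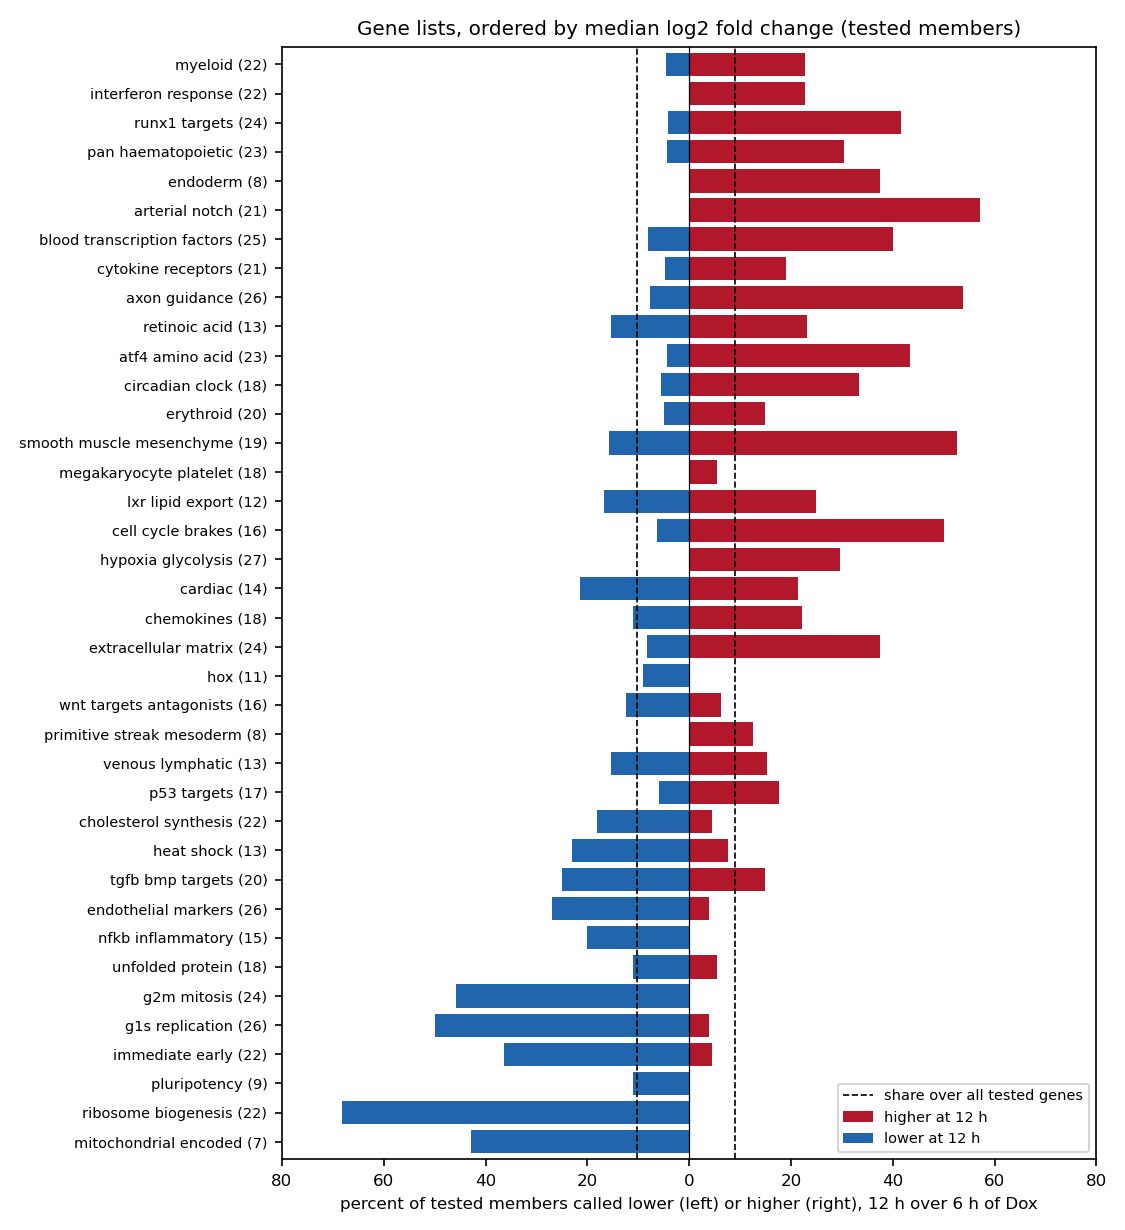
Percent of the tested members of each gene list (number tested in brackets) that rose (red, right) or fell (blue, left) between 6 h and 12 h of Dox, ordered by median log2 fold change; dashed lines mark the shares over all tested genes, 9.05% higher and 10.2% lower. Arterial and Notch genes have the longest bar to the right and ribosome biogenesis genes the longest to the left.

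Receptors and chemokines gave smaller counts, beside 9.05% higher and 10.2% lower over all tested genes. Of 21 cytokine receptor genes 4 rose and 1 fell, Csf2rb, Csf2rb2 (0.39), Il9r (0.66) and Il10ra (1.65) against Il4ra (-0.34). Csf2rb and Csf2rb2 are near-identical copies, and both values are uncertain. Il10ra ranged from 0.50 to 1.99 over 14 alternative fits, and its call was lost in 3 of them. Without Dox 6 h replicate 2 none of the 21 rose, and 2 did without Dox 12 h replicate 1, where Il4ra was not called either (-0.24). Of 18 chemokine and chemokine receptor genes 4 rose and 2 fell. Cxcr4 had 31.8 and 30.0 CPM at 12 h of Dox, against 18.4 and 20.8 CPM at 6 h (0.65 ± 0.10, adjusted p = 4.11e-06) and Ackr3, which encodes a scavenging receptor of the same ligand, had 62.9 and 56.1 CPM at 12 h of Dox, against 45 and 46.1 CPM at 6 h (0.39 ± 0.07, adjusted p = 0.000109). Cx3cr1 and Ccl3 (0.70) also rose, and Cxcl1 and Cxcl10 fell. Only 2 of these genes rose without Dox 6 h replicate 2.

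Counts for genes of earlier stages and of other germ layers stand beside 9.05% higher and 10.2% lower over all tested genes. Of 9 tested pluripotency genes 1, Lin28a (-0.23), fell, and was not called without Dox 6 h replicate 1 (-0.17). Of 8 primitive streak genes 1, Pdgfra (0.40), rose, and was not called without Dox 6 h replicate 1 (0.39), without Dox 6 h replicate 2 (0.44) or without Dox 12 h replicate 1 (0.39). Of 8 endoderm genes Cxcr4, Gata6 (0.26) and Cdh1 (0.38) rose, with Alb at 0 counts in the 4 Dox libraries compared, and 1 rose without Dox 6 h replicate 2 or without Dox 12 h replicate 1. Of 11 Hox genes 1, Hoxb2, fell (-0.22), with its call lost in all 14 alternative fits. By gene type, 10.1% of 13455 protein-coding genes rose and 10.5% fell, while of 1260 pseudogenes 0.952% rose and 10.8% fell. Pseudogenes can share reads with their parent genes, so their values are uncertain.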

How the data were processed

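Total RNA was sequenced as 75-base single reads after a strand-specific library preparation with 14 PCR cycles, per the labels' protocols. The authors deposited raw counts per Ensembl gene for 41128 genes, and RPKM values for the same genes, per the file headers, for 12 libraries in 6 groups of 2. The submitters' processing notes list R 3.1.0 with edgeR 3.8.5, SAMtools 0.1.19, Bowtie2 2.21, bcl2fastq 2.16.0.10 and the build GRCm38. Not given in the sources used here are the counting tool, the release of the annotation and the strand setting, so reads of overlapping and antisense genes cannot be told apart.

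Tests on the counts used R 4.3.3 with edgeR 4.0.16. Genes were filtered with filterByExpr, libraries scaled by TMM and group means fitted to all 12 libraries with glmQLFit (robust, 6 residual degrees of freedom). The contrasts were 12 h over 6 h with Dox, the same without Dox, and their difference, each adjusted over 15347 genes. The biological coefficient of variation was 4.71%. Alternatives used DESeq2 1.42.0, limma 3.58.1 on log2(RPKM + 0.5), other scalings and filters, a replicate block, subsets of libraries and each library left out. A library left alone in its group is assumed to vary like the other groups. Depth ranged from 13485804 to 35250074 counts over the 8 libraries of 6 h and 12 h.

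Members, gene lists and the naming rule were chosen with earlier results of these data known. The rule names the SOXF genes, Runx1, both Gfi1 genes, Itga2b and Cdh5. It adds the 15 largest rises and falls, the 10 largest differences each way, and up to 4 called members of each of 38 lists, with those against their list's direction. Differences and changes needed a mean log2 CPM of at least 1. Called members named outside this rule, such as Xaf1, Fcer1g and Myl7, were chosen after their values were seen. Promoters came from RefSeq on GRCm38.p6 and were matched for 10865 of 15347 genes (70.8%), so checks over whole gene sets are void, and each motif was sought on both strands. Some genes are not reported here.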

Additional observations from a re-analysis of the deposited data

Results flagged for a closer look

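For 21 named genes the change from 6 h to 12 h with Dox differed from that without Dox in edgeR's quasi-likelihood test of the difference, at a Benjamini-Hochberg adjusted p under 0.05. Values are log2 changes with Dox minus those without it, and n is 2 libraries in each of 4 groups. Among genes that gained more with Dox, Rac2 differed by 1.71 (adjusted p = 0.0113), Aqp8 by 1.45 (0.0111), Gfi1b by 1.28 (0.00735), Clic6 by 1.21 (3.08e-07), Apold1 by 1.17 (0.0353) and Adora1 by 1.06 (0.0365). Rhpn2 differed by 0.94 (0.0458), Rgs5 by 0.899 (0.00188), Cited4 by 0.84 (0.0145), Jag2 by 0.84 (0.0106) and Sox7 by 0.574 (0.000419). Among genes that gained less or fell with Dox, Clec4n differed by -2.08 (0.0113), Emr4 by -1.58 (0.0422), Spp1 by -1.15 (2.06e-07), Lilrb4 by -0.921 (0.0422) and Plek by -0.847 (2.06e-07). Rsad2 differed by -0.829 (0.0317), Gbp5 by -0.761 (0.0257), Lyve1 by -0.742 (0.00944), Hapln1 by -0.687 (0.0458) and Mir6236 by -0.653 (0.0111).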

How the results depend on the processing

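No named result changed sign in an alternative where it was called in that alternative or in the main fit. Some uncalled results did: in the Dox course Cdh5 ranged from -0.02 to 0.09 and Sox17 from -0.06 to 0.04. Limma-trend on RPKM called 1739 genes in the Dox course (1009 higher, 730 lower), 531 in the untreated course (353 higher, 178 lower) and 4 for the difference (2 higher, 2 lower). Without a filter the difference was called for 251 genes (81 higher, 170 lower), and in only the 8 libraries of 6 h and 12 h for 37 (12 lower). With 1 library left out, Dox course calls ranged from 1094 to 2548 (525 to 1208 higher, 569 to 1340 lower), the fewest without Dox 6 h replicate 2. Untreated calls ranged from 464 to 798 (286 to 466 higher, 178 to 347 lower), and difference calls from 12 to 213 (7 to 75 higher, 4 to 148 lower). The cause was not tested. Counts with DESeq2, the other scalings, the filter of 1 CPM in 4 libraries and the depth term stayed within 1.5 times. The labels give same-numbered libraries no shared source. Their deviations correlated with an r of -0.221 to 0.179 over the pairs of groups (0.117 for the Dox course). Whether same-numbered libraries shared a source cannot be told from these values. With the replicate block as a term, 2963, 1269 and 83 genes were called in the Dox course, the untreated course and the difference. Of 176 named genes called in the Dox course, 92 kept the call in every alternative that tested them, at most 14. The fit without erythroid, histone, histocompatibility and mitochondrial genes did not test those genes. Depth limits low genes most, and each group holds 1 deep and 1 shallow library.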
